A study of Homo sapiens with 20 samples.

Results

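The data compare U2OS cells depleted of UPF1 with control U2OS cells. They comprise 8 of the 20 arrays of the series, 4 labelled shRent1 and 4 labelled control, chosen by the treatment label and paired by time. U2OS is a human osteosarcoma cell line, grown here in DMEM with 10% FCS. RENT1 is an older name for UPF1, so shRent1 denotes a short hairpin RNA against it. Each condition had 1 array at each of 4 times: 0 hr, without DRB, and 1.5, 3 and 4.5 hr after DRB at 100 ug/ml. DRB blocks elongation by RNA polymerase II, so the later arrays show what was left of each transcript after new synthesis had been inhibited. The remaining 12 arrays held U2OS cells under hypoxia, tunicamycin (which blocks N-glycosylation in the endoplasmic reticulum) or emetine (which blocks translation), at the same times, with DRB in the same way. The treatment label gives a duration of 3 hr for all arrays, depleted and control ones included. No control hairpin is named for the control cells, and no separate culture is named for any array. The p-values below therefore measure only the scatter of these arrays over the times, and effects of culture or of array batch cannot be told apart from those of UPF1 depletion.

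UPF1 is an ATP-dependent RNA helicase on which nonsense-mediated mRNA decay (NMD) depends. NMD degrades mRNAs on which translation ends too early, upstream of an exon junction complex or far from the poly(A) tail. Its natural substrates include stress mRNAs with upstream open reading frames (uORFs), the spliced exonic remnants of genes that host small nucleolar RNAs (snoRNAs), and splicing factor isoforms that include poison exons carrying a stop codon. UPF1 also acts in the decay of histone mRNAs and of mRNAs bound by the Staufen proteins. The series' title concerns inhibition of NMD by the tumour microenvironment, and the depleted cells address which transcripts change when UPF1 itself is reduced.

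Values are microarray signals, in arbitrary linear units, given in the order 0, 1.5, 3 and 4.5 hr. A difference is the depleted minus the control log2 signal at the same time, averaged over the 4 pairs, with the SD over these pairs (n = 4). A gene was called higher or lower when limma's adjusted p was under 0.05 over all 14478 genes tested. The array normalization removes changes shared by most transcripts, so each value is relative to the bulk of transcripts on that array. In RNA from whole cultures, fewer cells of a type and less RNA per cell cannot be told apart. The 8 arrays had median signals of 37.7 to 40.4 and pairwise correlations of 0.952 to 0.994 across probe sets, and no pair was identical. Type I collagen (COL1A1, control signals 5892, 6838, 6307 and 6369.5) and SPARC (osteonectin; 4584, 4578, 5089 and 4858) were among the mesenchymal markers with strong signal. Of 20 markers of other cell types, 15 stayed under a signal of 100 on each of the 8 arrays. The keratins KRT18 and KRT8 were strong, with highest signals of 8663 and 4111, and EPCAM, SYP and HBB reached 377, 152 and 140. Not every mesenchymal marker was strong, as COL3A1 had 40.6, 55.7, 60.9 and 47.1 in control. The ratio of the 3′ to the 5′ control probe set of ACTB, a measure of RNA and labelling quality, was 0.55 ± 0.10 in log2 in control (SD, n = 4) and 1.24 ± 0.06 in depleted arrays. The ranges did not overlap. It was 0.54 ± 0.11 under tunicamycin, 2.04 ± 0.13 under hypoxia and 2.04 ± 0.19 under emetine. The same ratio of GAPDH was 0.04 ± 0.04 in control and 0.07 ± 0.02 in depleted arrays. These ratios moved with the condition, and their part in the differences below was not tested.

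UPF1 itself had signals of 355, 352, 392 and 377 in control and 169.5, 92.4, 94.7 and 89.4 in depleted cells. All 4 depleted arrays lay below all 4 control arrays. The differences were -1.06, -1.93, -2.05 and -2.08, so that the 0 hr pair differed least. The mean was -1.78 ± 0.48, which left 29.1% of the control signal (limma adjusted p = 4.07e-04). A second probe set for UPF1 gave -0.71 ± 0.26 (adjusted p = 0.00264 among probe sets). Under hypoxia, tunicamycin and emetine UPF1 stood at -0.16, 0.07 and 0.34 against the same controls. In depleted cells it differed from the mean of the hypoxia, tunicamycin and emetine arrays by -1.86 (SE 0.11, adjusted p = 1.48e-08).

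**Figure D1:**
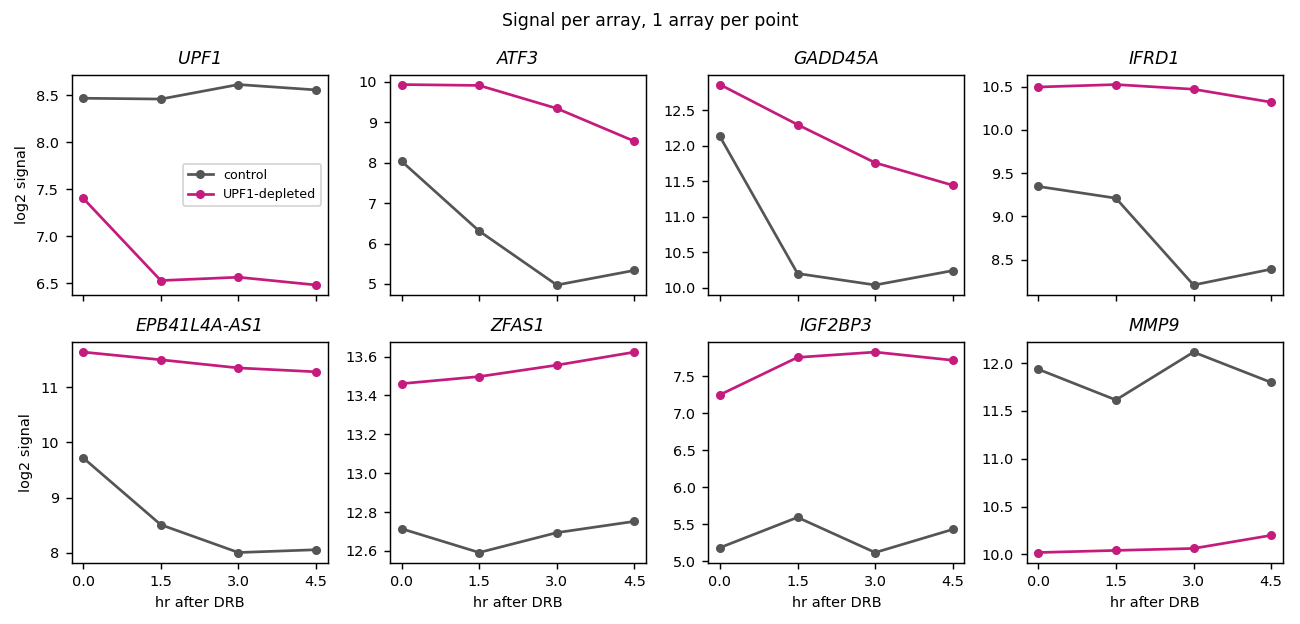
Log2 signal (vertical axis, a separate range in each panel) of 8 genes against hours after DRB (horizontal axis), with 1 array per point; grey, control; magenta, UPF1-depleted. UPF1 and MMP9 lay lower in all 4 depleted arrays, and the other genes except GADD45A lay higher on all 4 depleted than on any control array; the 3 hr and 4.5 hr GADD45A signals of depleted cells (3463 and 2779) were below the 0 hr control signal of 4475.

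Across the 14478 genes, 2859 were higher (19.7%) and 1979 were lower (13.7%) in depleted cells, 33.4% of those tested. The shares higher and lower are the background for each list count below. For 1598 genes (11.0%) all 4 depleted arrays lay above all 4 control arrays, and for 994 (6.87%) all lay below. The split between higher and lower depends on the scaling. Quantile normalization gave 2226 higher and 2504 lower, 47.1% of calls higher against 59.1% in the deposited scale, and centring on ribosomal protein genes gave 2560 and 2463. Without the time term, which pairs the arrays, 1011 genes were higher and 443 lower. For many list counts that moved by over 1.5 times, the range or some of the alternatives that moved them are given, but not for every count. Filters and the choice of probe sets also change how many members are tested.

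Among the NMD factors, 5 of the 9 tested were higher and only UPF1 was lower. SMG9, which binds and regulates the SMG1 kinase that phosphorylates UPF1, rose most among them. Its signals were 484, 339, 322 and 227 in control and 840.5, 664, 642 and 577 in depleted cells, a difference of 1.03 ± 0.23 (2.04-fold, adjusted p = 4.61e-04), with no overlap between groups. SMG6, the endonuclease that cuts NMD substrates, went from 87.9, 84.6, 93.6 and 110.4 to 123, 132, 135 and 126 (0.46 ± 0.19, adjusted p = 0.00699). UPF2, the bridge between UPF1 and the exon junction complex, rose by 0.34 ± 0.06 and SMG5, which recruits decay enzymes to phosphorylated UPF1, by 0.32 ± 0.10 (adjusted p = 0.00893 and 0.0135). PNRC2, which links UPF1 to decapping, rose by 0.70 ± 0.26 (adjusted p = 0.00247), from 1938, 957, 339 and 214 to 2713, 1602, 703 and 306. Its signal fell steeply with DRB in both conditions, so its arrays overlapped while every pair was higher. SMG8 (0.28 ± 0.65), DHX34 (0.28 ± 0.22) and NBAS (0.01 ± 0.18) did not pass (adjusted p = 0.332, 0.0561 and 0.966). The count of higher NMD factors was 2 without the time term. It was 2 of 4 tested with probe sets ending in _s_at or _x_at, which can detect several transcripts, left out, and then UPF1 has no probe set left. With the median of probe sets SMG6 was at 0.071 and lost its call. UPF3A, UPF3B and SMG1 were not analysed here.

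Of 7 exon junction complex genes tested none was higher, also at an unadjusted p under 0.05, though 3 of 5 tested were with _s_at and _x_at probe sets left out and 3 of 7 with the median of probe sets. RNPS1, a peripheral component of the complex, was the only lower one, at -0.31 ± 0.13 (adjusted p = 0.0189), and it was not called without the 3 hr or the 4.5 hr pair; 0 to 2 members were lower over the alternatives. EIF4A3, its RNA-clamping helicase, was at -0.20 ± 0.06 and did not pass (adjusted p = 0.0614). Of 25 genes of the general RNA decay machinery 5 were higher and 2 lower, close to the share of all genes. The decapping enzyme DCP2 had the largest difference of these, from 619, 815, 829.7 and 816 to 1356, 1315, 1346 and 1375 (0.82 ± 0.21, adjusted p = 9.10e-04), without overlap. The decapping activator DCP1A (0.62 ± 0.23), the 5′ to 3′ exonuclease XRN1 (0.56 ± 0.20) and the deadenylation factors PAN3 (0.49 ± 0.12) and CNOT6 (0.40 ± 0.18) also rose. The deadenylase CNOT6L (-0.33 ± 0.14) and the exosome cofactor helicase SKIC2 (-0.26 ± 0.06) fell; neither fall was called without the 1.5, 3 or 4.5 hr pair, and SKIC2 was not called without the 0 hr pair.

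SnoRNA host genes carry snoRNAs in their introns, and many of their spliced RNAs encode no long protein. Many start transcription at a cytosine followed by a run of pyrimidines, the 5′ terminal oligopyrimidine (5′ TOP) start shared with ribosomal protein genes. The starts of the 5 host genes that rose are printed below, 10 bases before and 20 bases from the annotated first base, 5′ to 3′ on the gene's strand, from RefSeq on GRCh38.p14. Capitals mark a cytosine followed by at least 4 pyrimidines that begins at the first base. They show that the hosts that rose do not share this kind of start:
ZFAS1, chr20:49278632-49278661, plus strand: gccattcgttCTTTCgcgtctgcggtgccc
SNHG32, chr6:31834906-31834935, plus strand: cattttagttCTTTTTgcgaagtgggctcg
TAF1D, chr11:93741476-93741505, minus strand: aatagccaacCCTTTTCTTCCgcacggttg
EPB41L4A-AS1, chr5:112160516-112160545, plus strand: tcatgaattctgtcgggtcccaaaatacgt
SNHG17, chr20:38435309-38435338, minus strand: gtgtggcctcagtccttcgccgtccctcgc
Such a start was present in 4 of the 7 host genes tested and in 23 of 36 ribosomal protein genes with a sequence. Over all 27305 promoter sequences the share was 4.04%. It depends on the annotated first base being the one used in these cells, which was not analysed here.

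Of the 7 host genes tested, of 21 listed, 5 were higher and none lower (also 0 lower at an unadjusted p under 0.05), with a median difference of 0.85 against -0.01 for all genes. With probe sets ending in _s_at or _x_at left out, 3 of the 5 then tested were higher. EPB41L4A-AS1, the host of SNORA13, went from 844, 365, 257 and 267 to 3182, 2889, 2608 and 2484. Each depleted array lay above each control array, at 2.87 ± 0.65 (7.29-fold, adjusted p = 1.94e-04). Its second probe set, 228259_s_at, gave a smaller difference of 1.24 ± 0.62 (2.36-fold), and there the groups overlapped. SNHG17 had 1193, 433, 328 and 328 in control and 2692, 1779, 1611 and 1344 in depleted cells (1.89 ± 0.49, adjusted p = 3.51e-04). SNHG32 went from 2084, 1146, 1043 and 1194 to 4809, 4054, 4441 and 4483 (1.76 ± 0.38, adjusted p = 2.15e-04). Neither of these overlapped between groups. In control cells all 3 dropped by 1.5 hr of DRB, whereas in depleted cells SNHG32 stayed between 4054 and 4809.

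ZFAS1 is the host of box C/D snoRNAs. The signals of its strongest probe set were 6719.7, 6173, 6626 and 6898 in control and 11274, 11564, 12045 and 12619 in depleted cells, a difference of 0.85 ± 0.07 (1.80-fold, adjusted p = 2.86e-04). Of its other probe sets 224915_x_at (0.88 ± 0.13) and 226835_s_at (1.05 ± 0.13) were alike, but 229899_s_at had 794, 18.2, 19.3 and 21.5 in control and 940.3, 30.9, 19.0 and 20.7 in depleted cells (0.23 ± 0.38) and did not pass (adjusted p = 0.227). TAF1D, a protein-coding host that encodes a subunit of the RNA polymerase I factor SL1, rose by 0.51 ± 0.21 (adjusted p = 0.00518). Its signal was 542 in control and 627 in depleted cells at 0 hr and no more than 35.5 on any array after DRB. SNHG4 (0.18 ± 0.31) and CENATAC (-0.06 ± 0.15) did not pass (adjusted p = 0.269 and 0.624). Against the mean of the 3 stresses, EPB41L4A-AS1 (0.81), SNHG17 (0.70), SNHG32 (0.47) and ZFAS1 (0.21) were also higher in depleted cells (adjusted p = 0.00191, 0.0139, 0.00298 and 0.00133). Of 40 ribosomal protein genes none was called in either direction, and their differences ranged from -0.08 to 0.17. Those with the largest limma statistics, RPS25, RPL6 and RPL37, stood at 0.17 ± 0.14, 0.14 ± 0.03 and 0.13 ± 0.06. At an unadjusted p under 0.05 the count was also 0, while limma called 10 of the 40 higher with trend and robust eBayes, 5 of 20 with _s_at and _x_at probe sets left out, and 3 of 39 with the median of probe sets.

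The list of stress transcripts with uORFs or other features known or proposed to attract NMD had 18 members, and all were tested. Of these, 16 were higher and none was lower (17 and 0 at an unadjusted p under 0.05), with a median difference of 0.72. The count was 15 under quantile normalization and under centring on ribosomal protein genes, which UPP1 left, and 7 without the time term. ATF3, a transcription factor that many stresses induce, had the highest difference of all genes named. Its signals were 262, 79.2, 31.5 and 40.4 in control and 974, 959, 647 and 369 in depleted cells, 3.26 ± 1.03 or 9.59-fold (adjusted p = 5.71e-04). The control signal fell to 31.5 by 3 hr, and the depleted signal was still 647. Its other probe sets gave 0.71 ± 0.39 and -0.24 ± 0.02, so the probe sets of ATF3 disagreed in size and sign.

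The growth arrest genes of the GADD45 family, which signal to stress kinases, followed. GADD45B had 811, 102, 83.1 and 104 in control and 2113, 1027, 412 and 208 in depleted cells (2.01 ± 1.04, adjusted p = 0.00343). GADD45A had 4475, 1175, 1050.5 and 1209 and 7428, 5024, 3463 and 2779 (1.44 ± 0.60, adjusted p = 0.00168). Both were higher in every pair, and both overlapped across times because DRB lowered them. Differences of GADD45B ran from 1.01 at 4.5 hr to 3.33 at 1.5 hr. Its probe set 213560_at was at 0.02 ± 0.29 (adjusted p = 0.933), so GADD45B was not called with _s_at and _x_at probe sets left out.

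IFRD1, a transcriptional coregulator with a uORF, went from 651, 592, 296 and 335 to 1443, 1472, 1418 and 1278 (1.66 ± 0.52, 3.17-fold, adjusted p = 6.70e-04). In depleted cells it changed little over the DRB course. BAG1, a cochaperone of HSP70, went from 842, 837, 679.7 and 803 to 1923, 1942, 2279.8 and 2402 (1.43 ± 0.27, 2.70-fold, adjusted p = 1.94e-04). The kinase MAP3K14 (NIK) rose by 1.21 ± 0.58 and the acetyltransferase gene NAT9 by 0.92 ± 0.22 (adjusted p = 0.00311 and 6.80e-04). TBL2, an ER protein that binds the kinase PERK, rose by 0.71 ± 0.19 (adjusted p = 0.00122). IFRD1, BAG1 and NAT9 did not overlap between the groups.

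The remaining members belong to or act beside the integrated stress response. ATF4, its central transcription factor, went from 9346, 8648, 7424 and 7150.2 to 13856, 13646, 13741 and 12332 (0.73 ± 0.14, adjusted p = 8.17e-04), with no overlap. PPP1R15A (GADD34), which directs dephosphorylation of eIF2alpha, rose by 0.95 ± 0.32. DDIT3 (CHOP), which promotes death under lasting stress, had 159.8, 117, 112 and 105 and 337, 255, 159 and 109.6 (0.69 ± 0.51, adjusted p = 0.0176). Its differences were 1.08, 1.13, 0.50 and 0.07, so the groups came together by the last time. ATF5, a factor related to ATF4, rose by 0.33 ± 0.07, though 2 of its 4 probe sets had the opposite sign. The pseudokinase TRIB3 (0.52 ± 0.25), the factor CEBPB (0.49 ± 0.16), the cystine transporter subunit SLC7A11 (0.47 ± 0.13) and uridine phosphorylase UPP1 (0.22 ± 0.01) were higher. CDKN1A, the cell cycle inhibitor p21, was at 0.24 ± 0.19 and CHAC1, which degrades glutathione, at 0.07 ± 0.58. Neither passed (adjusted p = 0.0771 and 0.792). Of the 18, 7 were higher and 6 lower in depleted cells than in the mean of the stressed cells. Over all genes these shares were 22.9% and 17.6%. BAG1 (1.22), IFRD1 (0.80), NAT9 (0.63) and ATF4 (0.54) were on the higher side. DDIT3 (-2.27) and PPP1R15A (-1.11) were on the lower side.

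Promoter letters of these genes, from 250 bases before to 50 after the annotated start, were searched on both strands for the cyclic AMP response element TGACGTCA and the amino acid response element core TGATGNAA. Both searches were chosen after the values had been seen. TGACGTCA was in 1.98% of all 27305 promoters and 3.05% of those of genes tested. It was found in MAFF and MOAP1 among the 15 genes with the highest differences (11 with a sequence), and in IFRD1 and PPP1R15A among the stress transcripts (16 with a sequence). It was in 0 of 22 promoters of the amino acid response list and 0 of 14 of the 15 lowest genes. These 4 genes come from the highest genes or from a list with 16 of 18 members higher. Their rise therefore follows from the choice of groups. How the other tested genes with the element behaved was not analysed here. The windows below have the element in capitals, 5′ to 3′ on the gene's strand, RefSeq on GRCh38.p14:
IFRD1, chr7:112450397-112450426, plus strand: cgcccacagagTGACGTCAggtggcggtat
MAFF, chr22:38201929-38201958, plus strand: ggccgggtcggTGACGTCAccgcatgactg
MOAP1, chr14:93184904-93184933, minus strand: cccgcccctcaTGACGTCAgatcgcccccg
PPP1R15A, chr19:48872352-48872381, plus strand: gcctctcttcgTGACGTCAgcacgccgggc
TGATGNAA, found in 3.67% of all promoters and 1.99% of those tested, was in ATF3 and CHAC1 of the stress list and in 6 of 22 promoters of the amino acid response list. Windows of 3 genes with different behaviour are shown: ATF3 and ASNS rose, and CHAC1, where the capitals show the reverse complement, did not pass:
ATF3, chr1:212565205-212565234, plus strand: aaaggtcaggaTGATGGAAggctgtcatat
ASNS, chr7:97872458-97872487, minus strand: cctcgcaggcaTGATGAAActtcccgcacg
CHAC1, chr15:40953251-40953280, plus strand: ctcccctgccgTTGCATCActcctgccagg
Of the 6 amino acid response genes with the element, ASNS and CARS1 were called higher. A match describes letters only.

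The 15 genes with the highest mean differences ran from 1.92 to 3.26. They were named for this size, so their level is a description. For 13 of them all depleted arrays lay above all control arrays, the exceptions being GADD45B and TCIM. Beside the genes above, ZFAND2A, an arsenite-inducible protein that acts with the proteasome, had 547, 424, 342 and 417 in control and 3054, 2960.2, 3172 and 3128 in depleted cells (2.85 ± 0.30, 7.22-fold). NUPR1, a stress-induced chromatin protein, went from 309, 363, 326 and 414 to 1223, 1361, 1594 and 1685 (2.05 ± 0.17). The small MAF factor MAFF went from 1953, 971, 544 and 415 to 3620.5, 3871, 3573 and 2991 (2.11 ± 0.90). MAFF fell with DRB in control cells and remained between 2991 and 3871 in depleted ones.

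IGF2BP3, an oncofetal RNA-binding protein, was near the filter in control (36.3, 48.2, 34.7 and 43.1) and at 152, 216, 227 and 209.8 in depleted cells (2.31 ± 0.28, 4.94-fold). The secreted protease MMP3 (stromelysin 1) went from 218, 222, 327 and 251 to 1030.4, 1202, 1384 and 1328 (2.29 ± 0.16). LPIN1, a phosphatidate phosphatase of lipid synthesis, went from 490.3, 404, 354 and 334 to 1565, 1552, 1565 and 1332 (1.94 ± 0.20). None of these 3 overlapped between the groups. RASSF1, a Ras-association tumour suppressor (1.92 ± 0.30), MOAP1, a partner of BAX (2.12 ± 1.05), and CDKN2AIP, a binding partner of the ARF tumour suppressor (2.27 ± 0.36), followed. CDKN2AIP control signals of 14.9 to 64.3 make its fold uncertain, as do those of TCIM (1.92 ± 0.58; control 7.45 to 21.7). The set also held the antisense RNA ZNF790-AS1 (2.65 ± 0.59) and the transcribed pseudogene SEPTIN7P2 (2.15 ± 0.41). The other ZNF790-AS1 probe set, 1558809_s_at, was at 0.29 ± 0.26 and did not pass (limma adjusted p = 0.0770 among probe sets). The probes of SEPTIN7P2 may also detect its parent gene, so its value is uncertain.

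**Figure D2:**
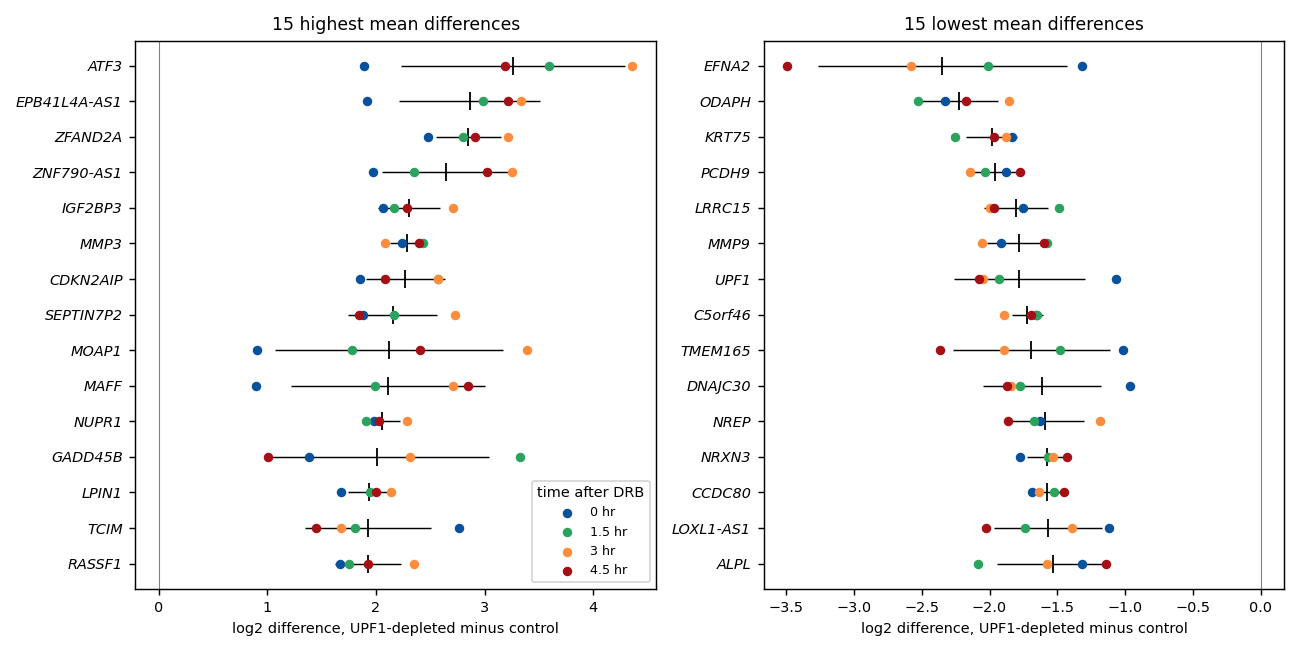
Log2 difference, UPF1-depleted minus control (horizontal axis), of the 15 genes with the highest (left) and the 15 with the lowest (right) mean difference. Coloured points are the 4 time pairs, the tick is their mean and the line the SD (n = 4 pairs); all pairs lie on 1 side of 0, and ATF3, MOAP1 and MAFF had their smallest difference at 0 hr.

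The 15 genes with the lowest mean differences ran from -2.35 to -1.53, and for 14 of them all depleted arrays lay below all control arrays, TMEM165 being the exception. UPF1 was the seventh lowest. EFNA2, a ligand of Eph receptors, had 239, 232, 271 and 276 in control and 96.0, 57.8, 45.4 and 24.6 in depleted cells (-2.35 ± 0.92, 19.6% of control). Its difference grew from -1.32 at 0 hr to -3.49 at 4.5 hr. MMP9 (gelatinase B) went from 3919, 3138, 4438 and 3562 to 1039, 1054, 1069.7 and 1176 (-1.79 ± 0.24, 29.0% of control), at every time by a similar size. Alkaline phosphatase ALPL, which mineralizing osteoblasts carry, went from 99.9, 189, 173 and 111 to 40.05, 44.5, 57.9 and 50.1 (-1.53 ± 0.41).

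The protocadherin PCDH9 (-1.96 ± 0.17), the membrane protein LRRC15 (-1.80 ± 0.23), the matrix protein CCDC80 (-1.57 ± 0.11) and the neurexin NRXN3 (-1.58 ± 0.15) were lower. PCDH9 rests on 219738_s_at, whose depleted signals were no higher than 34.3. Its other probe set, 219737_s_at, was at -0.18 ± 0.30 and did not pass (limma adjusted p = 0.28 among probe sets). CCDC80 had signals of 1048, 924, 1207 and 1068 in control and 325, 322, 388 and 391 in depleted cells. The mitochondrial J-domain protein DNAJC30 went from 232, 236, 184 and 147 to 119, 69.0, 51.4 and 40.3 (-1.61 ± 0.44). TMEM165, a Golgi ion transporter, fell with DRB in both conditions and was at -1.69 ± 0.58; with the median of its probe sets it was at -0.18 and not called. ODAPH (-2.22 ± 0.28), a protein of enamel formation, KRT75 (-1.98 ± 0.19), a keratin, C5orf46 (-1.72 ± 0.11), NREP (-1.59 ± 0.29) and the antisense RNA LOXL1-AS1 (-1.57 ± 0.40) completed the set. NREP rests on its _s_at and _x_at probe sets, as 230424_at was at -0.16 ± 0.48 (adjusted p = 0.498).

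A second reference, the mean of hypoxia, tunicamycin and emetine, shows which of these genes also differed from cells that were not controls. It shares the depleted arrays with the comparison above. Over all genes 22.9% were higher and 17.6% lower in depleted than in stressed cells. Of the 15 highest genes 10 were higher than in the stressed cells, and ATF3 was lower (-0.83, adjusted p = 0.0398). IGF2BP3 had the largest such difference (2.34, SE 0.12), followed by ZNF790-AS1 (2.08), ZFAND2A (1.73), SEPTIN7P2 (1.60) and NUPR1 (1.31). IGF2BP3 stood at 0.15, -0.10 and -0.15 under hypoxia, tunicamycin and emetine against the same 4 controls. ATF3 stood at 1.86, 4.60 and 5.81.

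Of the 15 lowest genes 13 were lower than in the stressed cells. EFNA2 (-2.09), UPF1 (-1.86), DNAJC30 (-1.54), PCDH9 (-1.50) and LRRC15 (-1.50) had the largest of these differences. For others the second difference was much smaller than that against control. KRT75 was at -1.98 against control and -0.39 against the stressed cells, and stood at -2.07, -0.44 and -2.28 under hypoxia, tunicamycin and emetine. MMP9 stood at -1.29, -0.20 and -1.91, and ALPL at -1.46, -0.22 and -1.66. These conditions share their control arrays. In these 3 genes, picked after their values were seen, the values were low where the ACTB ratio above was high and nearest to control under tunicamycin, where the ratio was 0.54; the part of RNA quality was not tested.

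Among other gene groups, the immediate early and AU-rich transcripts, which are made and degraded fast, had 18 of 31 members higher and none lower (20 and 0 at an unadjusted p under 0.05; median 0.51). ID3, an inhibitor of basic helix-loop-helix factors, went from 1804, 587, 286 and 408 to 3496, 2486, 1497 and 1043 (1.69 ± 0.66, adjusted p = 0.00124). PTGS2 (cyclooxygenase 2), weakly expressed, went from 19.8, 19.6, 17.1 and 16.4 to 40.2, 40.3, 59.5 and 40.9 (1.30 ± 0.36) and was the only member without overlap. The phosphatases DUSP1 and DUSP5 rose by 1.13 ± 0.77 and 1.11 ± 0.45, and the factors EGR1, KLF10 and JUN by 1.02 ± 0.84, 1.01 ± 0.74 and 0.81 ± 0.73. JUN had 1501, 151, 104 and 119 in control and 1861, 563, 147 and 170.3 in depleted cells, with its largest difference, 1.90, at 1.5 hr. MYC, at a difference of 0.23, did not pass (adjusted p = 0.124). In 25 of the 31 the mean difference was larger in size after DRB than at 0 hr, against 48.7% of all genes tested. Compared with stressed cells 19 of the 31 were lower and 1 was higher, against 17.6% lower and 22.9% higher over all genes. The count of higher members was 8 of 18 tested with probe sets ending in _s_at or _x_at left out, 7 in the fit to all 20 arrays, 12 without the 3 hr pair and 1 without the time term.

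The amino acid response, driven by ATF4, had 9 of 25 members higher and none lower (13 and 0 at an unadjusted p under 0.05; median 0.20). The sestrin SESN2, an inhibitor of mTORC1, went from 191, 106, 76.0 and 67.9 to 406, 219, 143 and 128 (0.99 ± 0.09, adjusted p = 1.94e-04), near a doubling at each time. The amino acid transporter SLC38A2 rose by 0.77 ± 0.41, and the serine and cysteine synthesis enzymes PSPH and CTH by 0.68 ± 0.46 and 0.58 ± 0.35. Asparagine synthetase ASNS rose by 0.28 ± 0.14 and stood at 0.80 under tunicamycin against the same controls. The count was 6 without the 3 hr pair, 6 of 14 tested with _s_at and _x_at probe sets left out, and 2 without the time term.

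The ER unfolded protein response had 5 of 21 higher and 1 lower, near the background (3 higher without the time term, and 0 to 2 lower over the alternatives). The chaperone DNAJB9 rose by 0.92 ± 0.42 and the eIF2alpha kinase EIF2AK3 (PERK) by 0.74 ± 0.19. The sensor ATF6 was at -0.68 ± 0.21 (adjusted p = 0.00165), but 3 of its 4 probe sets had the opposite sign. Of the 21 genes, 13 were lower in depleted than in stressed cells, against 17.6% of all genes.

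**Figure D3:**
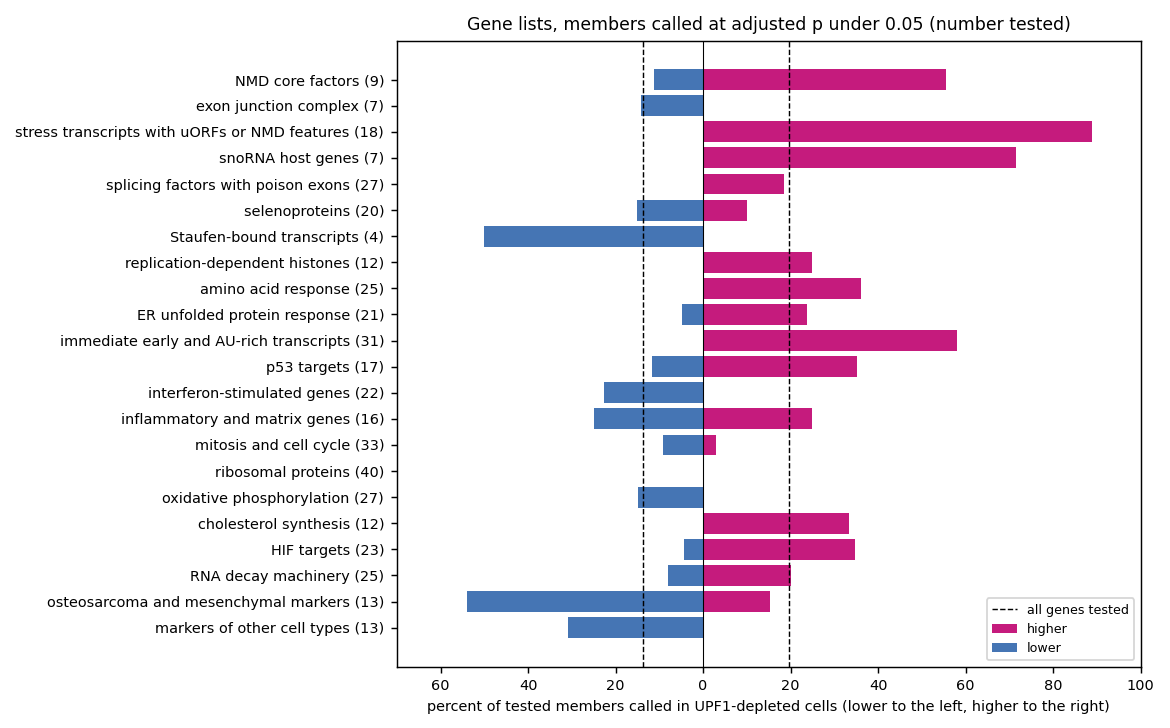
Percent of the tested members of each gene list (rows, number tested in brackets) called lower (blue, to the left) or higher (magenta, to the right) in UPF1-depleted cells; dashed lines mark the shares of all 14478 genes, 13.7% and 19.7%. The stress transcripts (16 of 18), snoRNA hosts (5 of 7) and immediate early transcripts (18 of 31) have the largest shares higher, and the mesenchymal markers (7 of 13) the largest share lower.

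Of 17 p53 targets, 6 were higher (35.3%) and 2 lower (11.8%), against 19.7% and 13.7% of all genes. Without the time term 3 were higher, and with _s_at and _x_at probe sets left out 4 of 10 tested were higher and none lower. The cytokine GDF15 went from 52.4, 44.2, 49.6 and 41.0 to 127, 123, 101 and 94.8 (1.25 ± 0.18, adjusted p = 1.67e-04), without overlap. The phosphatase PPM1D (0.72 ± 0.39), the death receptor TNFRSF10B (0.69 ± 0.27) and the ribonucleotide reductase subunit RRM2B (0.58 ± 0.14) rose, and the oxidoreductase TP53I3 (-0.52 ± 0.05) and the death receptor FAS (-0.32 ± 0.05) fell. Of 23 HIF targets 8 were higher (34.8%) and 1 lower (4.35%), against the same 19.7% and 13.7%. The histone demethylase KDM3A (0.85 ± 0.22), the growth factor VEGFA (0.82 ± 0.32), the glucose transporter SLC2A3 (0.62 ± 0.32) and hexokinase HK2 (0.53 ± 0.09) rose. The same 4 stood at 2.39, 1.60, 3.70 and 2.04 under hypoxia, so these were smaller values in depleted cells. The count of higher HIF targets was 4 of 11 tested with _s_at and _x_at probe sets left out, 4 of 23 with the median of probe sets, and 2 without the time term. From 0 to 3 were lower over the alternatives. Of 12 cholesterol synthesis genes 4 were higher (33.3%, against 19.7% of all genes), led by INSIG1, which restrains the pathway (1.06 ± 0.27), and HMGCS1 (0.79 ± 0.41). Without the time term 1 was higher.

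Splicing factors regulate themselves through poison exons, so the part of the transcript that is probed matters. At the level of genes 5 of 27 were higher and none lower (18.5%, near the background of 19.7%; 3 higher and 1 lower under either other scaling, 3 higher without the 0 hr or the 1.5 hr pair, 2 without the 3 hr pair and none without the time term). These were HNRNPA1 (0.57 ± 0.54), RBM39 (0.56 ± 0.24), CLK4 (0.44 ± 0.24), SRSF6 (0.25 ± 0.13) and HNRNPH1 (0.25 ± 0.08). Over their 92 probe sets tested as separate features, 18 were higher and 3 lower, in 12 and 3 genes. The 19.6% higher compares with 18.1% of all 26962 probe sets.

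Probe sets of the same gene disagreed. For SRSF7, probe set 213649_at had 2132, 75.0, 53.7 and 55.8 in control and 2371, 276, 249.6 and 224 in depleted cells (1.56 ± 0.95, adjusted p = 0.00676). The pair at 0 hr was nearly equal, and the 3 later depleted arrays stayed above 224 while control dropped below 75. The other SRSF7 probe sets were at -0.01 ± 0.32, -0.25 ± 0.15 and -0.02 ± 0.10. HNRNPA2B1 probe set 225932_s_at went from 3130.2, 1883, 1678 and 1899 to 4855, 3845, 4155 and 4241 (1.03 ± 0.29, adjusted p = 8.63e-04), and 205292_s_at was at 0.13 ± 0.15. SRSF11 200685_at (0.71 ± 0.20) and TIA1 201449_at (0.78 ± 0.15) were higher. SRSF1 201742_x_at (-0.66 ± 0.20) and HNRNPH1 213470_s_at (-0.53 ± 0.34) were lower. Which isoform each probe set detects was not analysed here.

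**Figure D4:**
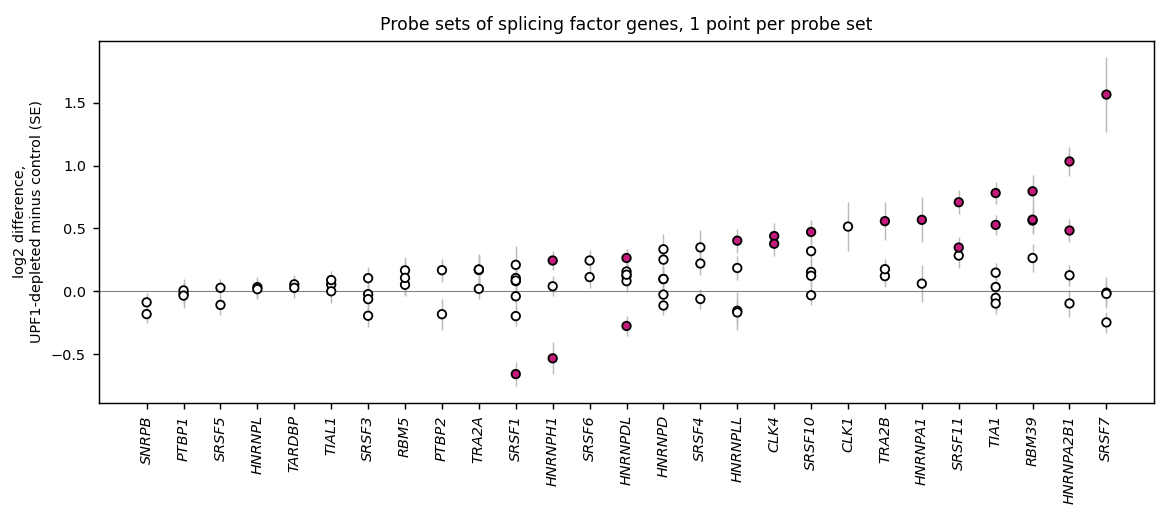
Log2 difference, UPF1-depleted minus control (vertical axis, with SE), of each probe set of 27 splicing factor genes (horizontal axis, ordered by their highest probe set); filled points passed limma's adjusted p of 0.05 over 26962 probe sets. In SRSF7 and HNRNPA2B1 a probe set lies above 1.0 while others of the same gene lie near 0.

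Of 13 osteosarcoma and mesenchymal markers 7 were lower and 2 higher (median -0.25). Fibronectin FN1 went from 4642, 4837, 6428 and 5414 to 2919, 3429.5, 3555 and 3755 (-0.64 ± 0.16, adjusted p = 0.00147) and the surface protein THY1 from 1146, 925, 1166 and 1075 to 577, 586, 650.0 and 727 (-0.76 ± 0.19). Collagen V chains COL5A1 (-0.64 ± 0.09) and COL5A2 (-0.63 ± 0.16) and the osteoblast factor RUNX2 (-0.56 ± 0.31) also fell. COL3A1 (0.53 ± 0.15) and S100A4 (0.60 ± 0.10) rose. Among 28 collagen genes taken by symbol 11 were lower (39.3%) and 2 higher. Without _s_at and _x_at probe sets, 3 of the 6 markers then tested were lower, and without the time term 4 of 13. In the inflammatory and matrix list, 4 of 16 rose and 4 fell; 2 and 1 of 9 did so with _s_at and _x_at probe sets left out. The urokinase PLAU went from 566, 385, 437 and 369.6 to 845, 832, 883 and 946 (1.01 ± 0.33), and the chemokine CCL2 from 795, 672, 659.5 and 670.1 to 413, 201, 219 and 241 (-1.44 ± 0.35, adjusted p = 3.51e-04). CCL2 stood at -0.70, -1.01 and -1.87 under hypoxia, tunicamycin and emetine against the same controls.

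Markers of other cell types gave 4 of 13 lower and none higher (2 lower without the 0, 1.5 or 4.5 hr pair, and 1 without the time term), and the summed signal of all markers ran from 12592 to 13941 in control and from 11927 to 12670 in depleted cells. The lower ones were CD3E, EPCAM, MBP and the keratin KRT8, which was at -0.42 ± 0.05. KRT18, the marker with the strongest signal (up to 8663 on the 8 arrays), was not among them. Interferon-stimulated genes had 5 of 22 lower and none higher (2 lower without the 1.5 hr or the 4.5 hr pair, 3 without the 3 hr pair, and 0 without the time term), led by IFIT1 (-0.47 ± 0.12) and IFIT2 (-0.50 ± 0.33), both with signals under 50. Of 33 mitosis and cell cycle genes 3 were lower and CDC25A, a phosphatase that activates cyclin-dependent kinases, was the only higher one (1.21 ± 0.51, adjusted p = 0.00198). The lower ones were CCNB2 (-0.30 ± 0.20), CDC20 (-0.26 ± 0.10) and MKI67 (-0.24 ± 0.07), and at most 1 was lower with any pair left out. Over the alternatives 0 to 5 were lower and 0 to 3 higher. Of 27 oxidative phosphorylation genes 4 were lower (14.8%, against 13.7% of all genes), the largest fall being SDHC at -0.35 ± 0.19. None was lower without the 1.5 hr pair, the 4.5 hr pair or the time term, 2 were without the 0 hr pair, and 7 were with trend and robust eBayes.

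Histones and Staufen-bound mRNAs are substrates of other pathways that use UPF1. Of 12 replication-dependent histone genes 3 were higher, near the 19.7% of all genes, and the median difference was 0.03. H2AC6 went from 242, 272, 212 and 238 to 589, 649.6, 619 and 569 (1.34 ± 0.14, adjusted p = 8.07e-05), and H2BC4 (0.56 ± 0.10) and H2BC12 (0.45 ± 0.11) rose less. None of the 3 overlapped between groups. In the Staufen list none of 4 was higher, and STAU2 (-0.54 ± 0.25) and GAP43 (-0.42 ± 0.26) were lower. GAP43 was not called without the 3 hr pair or the time term, and with the median of probe sets none of the 3 members tested was lower. ARF1, a classical target of Staufen-mediated decay, was at -0.09 ± 0.27 (adjusted p = 0.543). Selenoprotein mRNAs, whose UGA codon can be read as a stop, had 2 of 20 higher, TXNRD1 (0.33 ± 0.10) and SELENOS (0.31 ± 0.20), and 3 lower, among them MSRB1 (-0.47 ± 0.18) and SEPHS2 (-0.48 ± 0.33); 1 was higher and 1 lower without the 3 hr or the 4.5 hr pair, and from 1 to 4 were called in each direction over the alternatives.

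By RefSeq class, 11.2% of 991 long noncoding RNAs were higher and 16.6% lower, against 19.7% and 13.7% of all genes. Of 13181 protein-coding genes 20.3% were higher and 13.5% lower. Of 221 transcribed pseudogenes 24.9% were higher and 9.50% lower. Of 320 numbered zinc finger genes 27.8% were higher and 10.9% lower. No test compared these classes.

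DRB separates a higher level at the start from slower loss. The difference in slope over the 4 times was then fitted in the 8 arrays. No gene passed limma's adjusted p of 0.05; 768 had an unadjusted p under 0.05, and the smallest adjusted p was 0.159. The fit to all 20 arrays called 5 genes higher and 1 lower. The largest statistics on the positive side belonged to HBEGF, a growth factor of the EGF family (0.38 log2 per hr, SE 0.05), MAFF (0.44, SE 0.07), RSRC2 (0.37, SE 0.06), SLC35E4 and ZBED2. HBEGF went from 3271, 1700.1, 1099 and 608 to 4055, 3212, 2695 and 2549. RSRC2 went from 2085, 910.5, 346 and 213 to 3078, 1971, 1349.8 and 934. Both had their smallest difference at 0 hr and their largest at 4.5 hr. On the negative side were EFNA2 (-0.47, SE 0.05), TMEM165 (-0.30, SE 0.05), ZFPM2, IRF2 and BBS12. IFRD1 (0.22, SE 0.07), EPB41L4A-AS1 (0.28, SE 0.08) and ATF3 (0.31, SE 0.16) had positive slopes that did not pass, and BAG1 was at 0.11 (SE 0.05).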

How the data were processed

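Biotin-labelled RNA amplified from total RNA was hybridized to Affymetrix arrays, per the labels' protocols. The authors deposited intensity values on a linear scale made with RMA, per the submitters' processing notes; the version is not given in the sources used here. All other steps were computed here. Values were log2 transformed. Of 54675 probe sets, 41091 had 1 gene symbol in the platform annotation. For each of 19775 genes the probe set of highest mean was taken, and 14478 genes above the 40th percentile of mean log2 signal (4.70) were tested. The 8 arrays were fitted with limma 3.58.1 in R 4.3.3, with time as a factor and condition, leaving 3 residual degrees of freedom. A linear time term in depleted cells was added for slopes. A fit to all 20 arrays gave the contrast with stressed cells. P-values were adjusted by Benjamini-Hochberg over all genes. On simulated data the level fit recovered 90 of 100 changes of log2 1 and 43 of 100 of log2 0.5, with 8 false calls. Only these genes were changed among 14478, with noise independent between genes. In the data 33.4% of genes were called, so these counts do not give the recovery or the false calls of the data. The number of arrays limits the precision.

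The time label pairs the arrays and is the main fit's block. Named genes included the 15 highest and 15 lowest mean differences among genes called. These had the same sign in 4 of 4 pairs and a mean log2 signal of at least 5 in control, depleted cells or both. CDKN2AIP (control mean 4.64) and TCIM met this only in depleted cells, and ODAPH and PCDH9 only in control. Also named were the 5 largest slope statistics per direction and all measured NMD factors, stress transcripts and snoRNA hosts. Each other list gave those that passed and the 3 largest statistics. MYC and single probe sets were chosen after their values were seen. Members, lists and rules were chosen with earlier results of these data known. Alternatives were filters, probe set choice, scaling, an added 32, no time term, all 20 arrays, trend and robust eBayes, and each pair left out.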

Additional observations from a re-analysis of the deposited data

Results flagged for a closer look

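In 11 of the 181 named genes, the difference at 1 time stood apart from those at the other 3 times; chance alone flags about 1 in 20 groups. UPF1 differed least at 0 hr, by -1.06. At the same time DNAJC30 (-0.96) and TBL2 (0.43) also had their smallest difference, and DCP2 (1.13) and EDEM1 (0.59) their largest. At 1.5 hr JUN (1.90) and KLF10 (2.12) stood above their other times. At 3 hr CLK4 (0.80) and H2AC6 (1.54) stood above and KLF2 (0.28) below. UPF2 was lowest at 4.5 hr (0.25). The 3′ to 5′ log2 ratio of ACTB control probe sets, which no comparison used, was 1.24 in depleted arrays against 0.55 in control.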

How the results depend on the processing

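Of 164 named genes called, 95 could be tested in all 13 alternatives that keep the time block; 50 of these kept their call throughout and 45 lost it in at least 1. Of the 69 that some filter or choice of probe sets removed, 37 kept it wherever they were tested and 32 lost it. Without the block 90 of the 164 lost it. No replicate block (no time term) gave 1011 genes higher and 443 lower, against 2859 and 1979. Leaving out each pair gave 2068 to 2426 higher and 1182 to 1537 lower; without the 3 hr pair 1243 genes were lower, and without the 4.5 hr pair 1182. With every probe set tested as its own feature, an alternative added after seeing the data, 4872 were higher and 3215 lower. For slopes, where no gene was called, adding 32 gave 1 higher, all 20 arrays 5 higher and 1 lower, and trend and robust eBayes 15 higher and 6 lower. Leaving out each pair gave 0 to 50 genes with a higher slope and 0 to 28 with a lower slope. Signs turned with the median of probe sets for ATF6 (0.21), CARS1 (-0.036), CREB3L2 (-0.19), DUSP1 (-0.23), HNRNPH1 (-0.25), STAU2 (0.053) and VEGFA (-0.073). With _s_at and _x_at probe sets left out, they turned for CREB3L2 (-0.19), SDHC (0.52) and ZFP36L1 (-0.078). The cause was not tested. Signals near the lowest values (5.93) mark a floor, so differences from control signals under about 32 are uncertain in size.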
